A study of Mus musculus with 9 samples.

Results

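The 10 genes described here are commonly used to detect T lymphocytes and natural killer (NK) cells in tissue: Trac, Trbc2, Cd3d, Cd3e, Cd3g, Cd8a, Cd8b1, Nkg7, Gzma and Gzmb. They were taken by gene name, and all 10 are among the 55401 genes of the deposited table. RNA was sequenced from mouse brain tissue around the infarct, collected at day 28 after photothrombosis (PT), in which a light-activated dye clots vessels of the cortex. One group of wild-type PT mice received Pushen, a drug preparation, by gavage from 24 h after surgery, at labelled doses of 391, 392 and 393 mg/kg, 1 dose per library. A second group of wild-type PT mice and a group of wild-type sham-operated mice received ultrapure water. Each of the 3 groups held 3 libraries; their strain, sex and age are not stated in the labels. Whether each library is a different animal is not stated, so the p-values below rest on library-to-library spread that may be technical.

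T cells recognise antigen with a receptor of an alpha and a beta chain, whose constant regions are encoded by Trac and by Trbc1 or Trbc2. The chains do not signal by themselves and are carried to the surface with the CD3 subunits, encoded by Cd3d, Cd3e, Cd3g and Cd247. Cytotoxic T cells add the co-receptor CD8, which binds MHC class I, and kill with granules of perforin and granzymes, a machinery they share with NK cells. Healthy brain tissue holds few T cells outside its borders, and T cells are known to enter the tissue after stroke.

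Of the 10 genes, 9 were near 0 in sham tissue and higher in the tissue around the infarct, with and without Pushen. The exception was Trbc2, which had its highest group mean in sham and did not pass the test in any comparison. No gene of the 10 passed the test between Pushen and PT. All 10 had a mean of at least 10 counts per library and were tested, among 21891 genes in all. The 9 genes other than Trbc2 reached that filter only through their infarct libraries, which favoured a rise. When every gene with a count was tested, 9 of the 10 again rose in each infarct group against sham. Of 35527 genes 3261 then rose in PT and 2295 in Pushen. In PT against sham 9 of the 10 rose at an adjusted p under 0.05, where 16.9% of all tested genes rose and 9.31% fell (edgeR quasi-likelihood test, Benjamini-Hochberg adjusted over all tested genes). In Pushen against sham 9 of 10 rose, where 12.1% of tested genes did and 2.06% fell. None of the 10 fell in either comparison. An unadjusted p under 0.05 was reached by 38.8% of tested genes in PT and 29.7% in Pushen, each against sham, and by the same 9 of the 10. In Pushen against PT 0 of 10 passed, 0 of 10 had an unadjusted p under 0.05 and 0 of 10 passed with DESeq2; of all tested genes 0.0% passed in this comparison, 5.77% had an unadjusted p under 0.05 and DESeq2 called 57. The median fitted log2 fold change over the 10 genes was 5.47 in PT against sham, or 2.96 with the 4 genes that had no sham count set at their lower bounds, against 0.01 over all tested genes. In Pushen against sham it was 5.36, or 2.85 with the bounds, against -0.01 over all tested genes. The same sham libraries served both comparisons.

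These are bulk samples, in which more cells of a type and more RNA per cell cannot be told apart. Library totals ranged between 57437342 and 75100133 deposited counts. Counts of the 10 genes were low, and low counts in the table pile up at multiples of 4: over all genes and libraries the value 4 occurs 14060 times, 3 occurs 5142 times and 5 occurs 2709 times. A gene with no count in sham is therefore given as a lower bound against a floor of 3 such steps, or 12 counts, in each sham library. Each bound divides the mean of the infarct libraries by that floor, so it does not cover the spread between infarct libraries. Leaving out PT library 2, for example, took the Cd3d bound in PT from 5.69-fold to 3.9-fold. Intervals cover counting error and the spread between libraries only. Photoreceptor markers, checked because the labels' extraction protocol names retina, summed to between 1.15 and 2.20 CPM (counts scaled to library size) over the 9 libraries, and 5 neuronal markers to between 4170 and 8120 CPM.

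**Figure D1:**
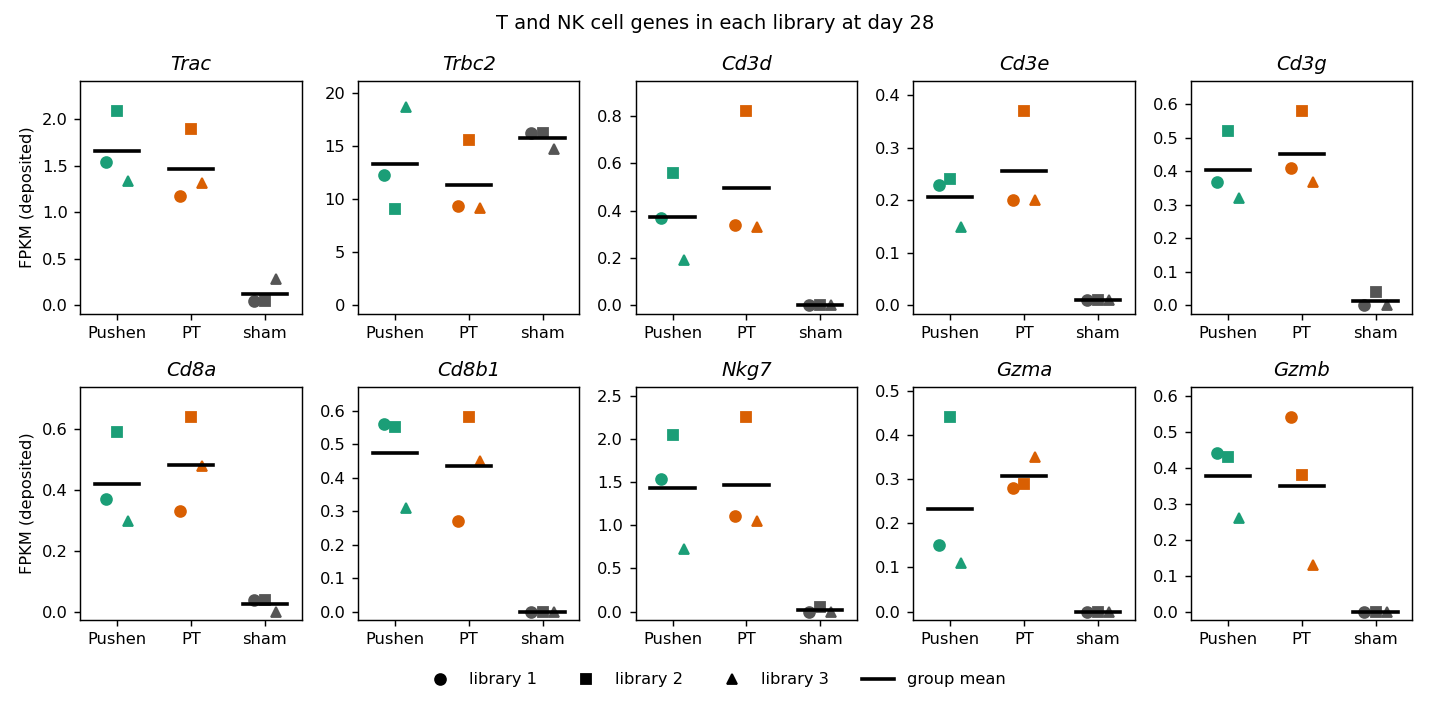
Deposited FPKM (vertical axis, linear, a separate scale per gene) of each of the 10 genes in the 3 Pushen, 3 PT and 3 sham libraries. Symbols mark the library number and bars the group mean. In 9 genes every infarct library lies above every sham library, while the Trbc2 libraries of the 3 groups overlap.

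For the constant chains of the receptor the groups behaved differently. Trac, the alpha constant region, had 95, 164 and 90 counts in the Pushen libraries, 91, 154 and 92 in the PT libraries, and 4, 4 and 21 in the sham libraries. In FPKM, reads scaled to gene length and library size, it averaged 1.66 ± 0.388 in Pushen, 1.47 ± 0.382 in PT and 0.127 ± 0.133 in sham (SD, n = 3 each). Every infarct library was above every sham library, as for the other 8 genes that rose. Libraries did not overlap, with sham lower, in 24.8% of all tested genes in PT and 22.0% in Pushen. Trac rose in PT against sham by a log2 fold change of 3.41 ± 0.59 (SE; edgeR adjusted p = 0.00377) and in Pushen against sham by 3.56 ± 0.60 (edgeR adjusted p = 0.00450). Of its 29 sham counts 21 came from library 3, and without that library the 2 values were 4.66 and 4.82. Its position is chr14:54220521-54224206, plus strand, in the deposited coordinates, which match GRCm38.

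Trbc2 was the most abundant of the 10 genes and the only one with over 100 counts in sham. It had 556, 528 and 919 counts in the Pushen libraries, 530, 922 and 464 in the PT libraries, and 855, 934 and 793 in the sham libraries. Its level averaged 13.4 ± 4.92 FPKM in Pushen, 11.4 ± 3.63 FPKM in PT and 15.8 ± 0.872 FPKM in sham (SD, n = 3 each). Pushen library 3 lay above the sham range, PT library 2 within it, and the other 4 infarct libraries below it. The log2 fold change was -0.55 in PT against sham (95% interval -1.19 to 0.09, edgeR adjusted p = 0.188) and -0.32 in Pushen against sham (-0.96 to 0.33, edgeR adjusted p = 0.499). In sham the Trbc2 level was 326, 326 and 52.8 times that of Trac in FPKM, against 4.35 to 14.0 times in Pushen and 6.93 to 8.19 times in PT. Transcripts of the beta constant region have been described in neurons of the mouse brain, as background. The 5 neuronal markers summed to 5090, 4820 and 6090 CPM in Pushen, 4170, 4910 and 5770 CPM in PT, and 7650, 8120 and 7020 CPM in sham. Over all tested genes 9.31% fell in PT against sham and 2.06% in Pushen against sham. Of these 5 markers 4 fell in PT and 3 in Pushen. Their part in the Trbc2 level was not tested.

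Trbc2 (chr6:41546730-41548352, plus strand) lies next to its near-identical copy Trbc1 (41538218 to 41539881). Because the authors' counting could split reads between them, the sequences are compared here. Over the first 3 coding exons, 500 bases, the pair is 96.2% identical in GENCODE M21, with 1 mismatch in the 375 bases of exon 1, 3 in the 18 bases of exon 2 and 15 in the 107 bases of exon 3. The longest identical stretch is 259 bases. Exon 3, which tells the copies apart, is printed for both (GRCm38, plus strand, Trbc1 at chr6:41539229-41539335 and Trbc2 at chr6:41547772-41547878), with capitals at the 15 mismatches.
Trbc1: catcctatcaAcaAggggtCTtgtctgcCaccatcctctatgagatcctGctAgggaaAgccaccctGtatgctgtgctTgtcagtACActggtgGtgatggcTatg
Trbc2: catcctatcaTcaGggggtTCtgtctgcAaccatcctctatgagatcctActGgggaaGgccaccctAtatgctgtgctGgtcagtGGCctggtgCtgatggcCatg
Trbc1 had 79, 86 and 86 counts in Pushen, 79, 92 and 60 in PT, and 34, 0 and 56 in sham. It was thus higher in every infarct library than in every sham library, but its log2 fold change of 1.22 in PT against sham (95% interval -0.80 to 3.23) did not pass (edgeR adjusted p = 0.350), nor did 1.48 in Pushen against sham (-0.54 to 3.50, edgeR adjusted p = 0.306). With limma on log2(FPKM + 1) Trbc1 passed in Pushen against sham (adjusted p = 0.0464). Added together the 2 copies came to 10.7, 8.11 and 16.2 CPM in Pushen, 8.31, 13.2 and 8.13 CPM in PT, and 14.1, 13.2 and 12.8 CPM in sham, so the groups overlapped for the sum as they did for Trbc2 alone.

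Of the variable and joining segments of the alpha and beta loci, summed here with no test, Trbv held more counts in every infarct library than in any sham library. Variable segments are present in a finished receptor transcript after the locus has been rearranged. Their reads are spread over many short genes, some of them alike in sequence, so single values are uncertain. The 35 Trbv segments of the beta locus held 53, 85 and 8 counts in the Pushen libraries, 38, 64 and 40 in the PT libraries, and 4, 6 and 0 in the sham libraries. Between 2 and 10 of them had a count in an infarct library, and at most 2 in a sham library. The 130 Trav segments of the alpha locus held 132, 122 and 64 counts in Pushen, 96, 102 and 59 in PT, and 33, 38 and 68 in sham, with the groups overlapping. The 7 Trbj2 segments, which lie between Trbc1 and Trbc2, held 18, 16 and 20 counts in Pushen, 22, 29 and 13 in PT, and 23, 34 and 32 in sham. The 7 Trbj1 segments, which lie before Trbc1, held 5, 10 and 2 counts in Pushen, 3, 4 and 5 in PT, and 2, 0 and 0 in sham. In every library, infarct or sham, Trbc2 held more counts than Trbc1 and than each of the Trbv, Trbj1 and Trbj2 sums. Trbv counts were few in sham.

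**Figure D2:**
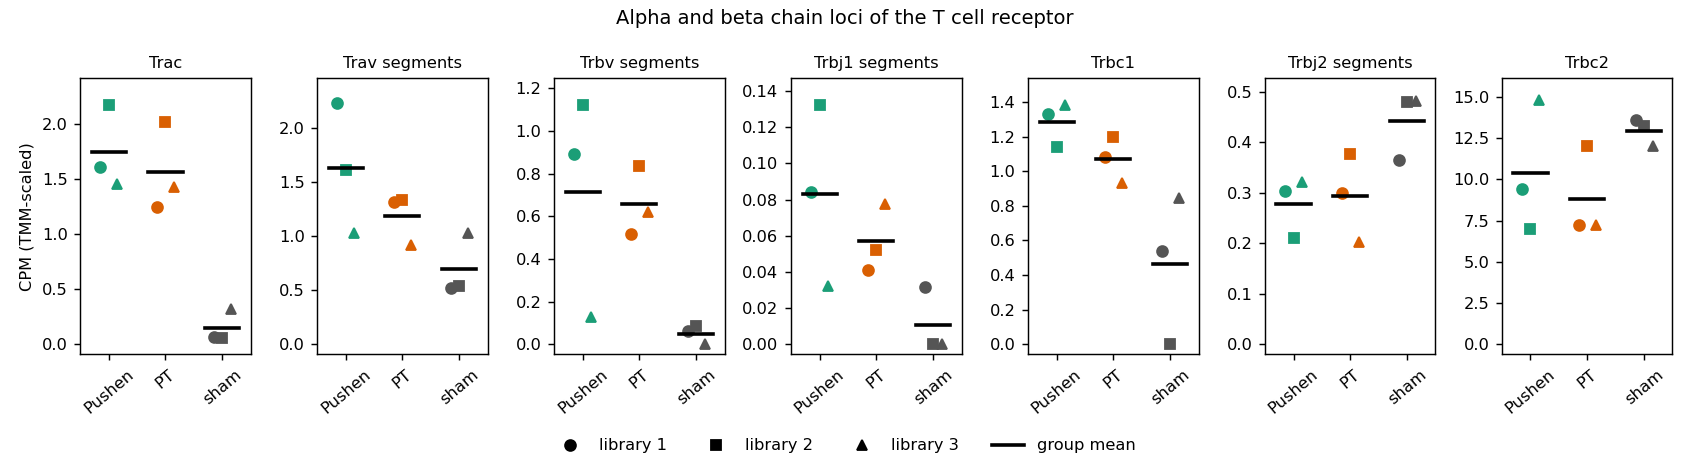
Level in CPM after trimmed-mean scaling (vertical axis, linear, a separate scale per panel) of Trac, summed Trav segments, summed Trbv segments, summed Trbj1 segments, Trbc1, summed Trbj2 segments and Trbc2 in the Pushen, PT and sham libraries, with bars at group means. Trac and the Trbv segments lie lowest in sham, and Trbc2 and the Trbj2 segments have their highest group mean there.

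The 3 CD3 subunits rose together in both infarct groups. Cd3d had 46, 86 and 25 counts in Pushen, 52, 128 and 45 in PT, and none in any sham library. It was at least 5.69-fold higher in PT than in sham (edgeR adjusted p = 0.00133) and at least 4.28-fold higher in Pushen than in sham (edgeR adjusted p = 0.00243). Cd3e, the subunit against which most anti-CD3 antibodies are directed, had 65, 84 and 44 counts in Pushen, 66, 133 and 61 in PT, and 4 in each sham library. Its infarct counts were thus all more than 10 times the sham count, before scaling. Cd3e rose by a log2 fold change of 4.27 ± 0.42 in PT against sham (SE; edgeR adjusted p = 0.000441) and 3.98 ± 0.42 in Pushen against sham (edgeR adjusted p = 0.000712). Antisense genes, Gm48719 and Gm48720, overlap Cd3e, and without a stated strand setting their reads cannot be told apart from those of Cd3e. Cd3g had 81, 144 and 75 counts in Pushen, 109, 165 and 88 in PT, and 0, 12 and 0 in sham. All its sham counts thus came from library 2. Its log2 fold change was 4.79 ± 0.93 in PT against sham (SE; edgeR adjusted p = 0.00620) and 4.63 ± 0.92 in Pushen against sham (edgeR adjusted p = 0.0103). Without sham library 2 the gene is at 0 in sham, and the fitted values of 9.82 and 9.66 are then no measure of size.

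Per unit of length Cd3e had the lowest group mean of the 3 subunits in both infarct groups. Cd3d, Cd3e and Cd3g averaged 0.373 ± 0.185, 0.207 ± 0.0493 and 0.403 ± 0.104 FPKM in Pushen, 0.497 ± 0.280, 0.257 ± 0.0982 and 0.453 ± 0.112 FPKM in PT, and 0, 0.01 and 0.0133 FPKM in sham (SD, n = 3 each). The 3 genes sit together on chromosome 9, Cd3g from 44969572 to 44980431 and Cd3e from 44998740 to 45009622 on the minus strand, and Cd3d from 44981786 to 44987339 on the plus strand. Cd247, the zeta chain that completes the CD3 complex, lies on another chromosome. It had 62, 54 and 19 counts in Pushen, 70, 46 and 50 in PT, and 4, 4 and 12 in sham. Cd247 rose by 2.93 ± 0.60 on the log2 scale in PT against sham (SE; edgeR adjusted p = 0.00811) and by 2.76 ± 0.60 in Pushen against sham (edgeR adjusted p = 0.0157). Without sham library 3 the value in PT was 3.66. In Pushen the call was lost without sham library 1, sham library 2 or Pushen library 1 (edgeR adjusted p = 0.0650, 0.0664 and 0.0598), and with PT library 1 and Pushen library 2 both left out (0.0592); with limma on log2(FPKM + 0.1) it was also lost (0.0536).

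Both chains of CD8 rose as well. Cd8a had 90, 181 and 77 counts in Pushen, 99, 200 and 130 in PT, and 12, 11 and 0 in sham. Its log2 fold change was 4.09 ± 0.75 in PT against sham (SE; edgeR adjusted p = 0.00499) and 3.88 ± 0.75 in Pushen against sham (edgeR adjusted p = 0.00898). Cd8b1, the beta chain, which in the mouse is found on conventional cytotoxic T cells and not on most CD8-positive dendritic cells, had 55, 69 and 33 counts in Pushen, 33, 74 and 49 in PT, and none in sham. Cd8b1 was at least 4.02-fold higher in PT than in sham (edgeR adjusted p = 0.000750) and at least 4.38-fold higher in Pushen than in sham (edgeR adjusted p = 0.00104). In FPKM Cd8a and Cd8b1 averaged 0.420 ± 0.151 and 0.473 ± 0.142 in Pushen, 0.483 ± 0.155 and 0.433 ± 0.156 in PT, and 0.0267 and 0 in sham (SD, n = 3 each). A difference between Cd8a and Cd8b1 was not tested. Both genes are on the plus strand of chromosome 6, Cd8a from 71373427 to 71379169 and Cd8b1 from 71322788 to 71337494.

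The genes of cytotoxic granules rose too. Nkg7, a granule membrane protein of T and NK cells, had 94, 158 and 47 counts in Pushen, 83, 178 and 72 in PT, and 0, 4 and 0 in sham. It averaged 1.44 ± 0.671 FPKM in Pushen, 1.47 ± 0.676 FPKM in PT and 0.0167 FPKM in sham (SD, n = 3 each), a level per length close to that of Trac in the infarct groups. The log2 fold change was 6.14 ± 0.89 in PT against sham (SE; edgeR adjusted p = 0.00159) and 6.10 ± 0.89 in Pushen against sham (edgeR adjusted p = 0.00239). These values rest on the 4 counts of sham library 2, without which sham is at 0 and the fitted values are 9.69 and 9.64. The gene is at chr7:43437073-43438249, plus strand.

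Gzmb, the granzyme that cleaves caspases, had 42, 53 and 27 counts in Pushen, 64, 48 and 14 in PT, and none in sham. It was at least 3.17-fold higher in PT than in sham (edgeR adjusted p = 0.00208) and at least 3.41-fold higher in Pushen than in sham (edgeR adjusted p = 0.00288). PT library 3, with the fewest Gzmb counts of the infarct libraries, was just above the floor of 12. Gzma, a tryptase, had the fewest counts of the 10 genes, with 11, 38 and 8 in Pushen, 23, 26 and 26 in PT, and none in sham. It was at least 1.95-fold higher in PT than in sham (edgeR adjusted p = 0.00353). In Pushen it was at least 1.51-fold higher (edgeR adjusted p = 0.00651), but 38 of its 57 counts came from library 2. Without that library the other 2, at 11 and 8 counts, lay under the floor and allow no fold. Gzma lies on chromosome 13 from 113093825 to 113100981 and Gzmb on chromosome 14 from 56258838 to 56262260, both on the minus strand.

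**Figure D3:**
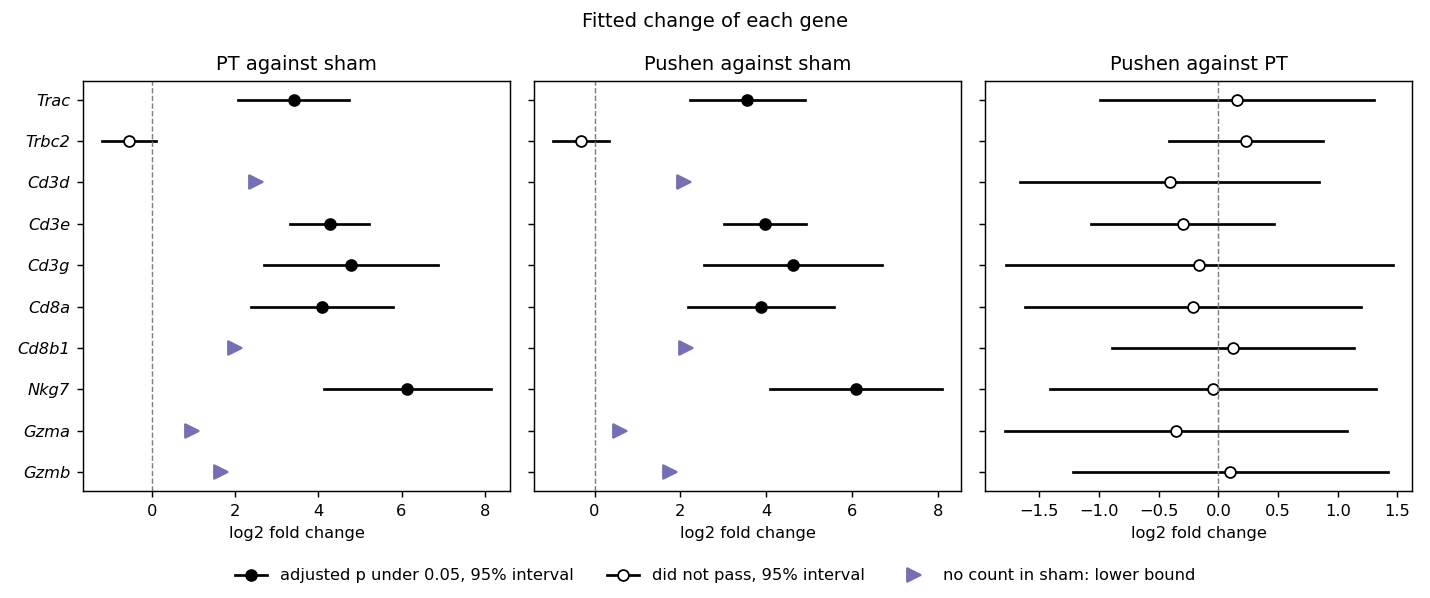
Log2 fold change (horizontal axis) of the 10 genes in PT against sham, Pushen against sham and Pushen against PT, with 95% intervals. Filled points passed at an adjusted p under 0.05, open points did not, and triangles are lower bounds for the 4 genes with no sham count. Every interval in the Pushen against PT panel spans 0.

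Pushen was set against PT to ask whether the treatment moved these genes. Fitted log2 fold changes lay between -0.41 for Cd3d and 0.23 for Trbc2, with a median of -0.10 against -0.01 over all tested genes. Adjusted p-values from edgeR lay between 0.866 and 0.993. For all 10 genes the libraries of the groups overlapped, where 5.72% of all tested genes were without overlap and higher, and 5.52% without overlap and lower. The intervals show what this size of sample leaves undecided. For Trac the 95% interval ran from -0.99 to 1.31 on the log2 scale, for Cd3e from -1.06 to 0.47, for Cd8b1 from -0.89 to 1.14, for Nkg7 from -1.41 to 1.32 and for Gzmb from -1.22 to 1.42. For Gzma, with the fewest counts, it ran from -1.79 to 1.08. The narrowest interval, that of Trbc2, ran from -0.41 to 0.88. A change of 1 on the log2 scale, in at least 1 direction, lay within the interval of every gene but Trbc2. For Trac and Cd8b1 this held only for a rise, and for Cd3e and Cd3d (-1.66 to 0.85) only for a fall. Leaving out 1 library turned the sign in 9 of the 10 genes, Gzma being the exception.

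The infarct libraries also differed among themselves. Summed over the 9 genes without Trbc2, the level was 9.77, 12.9 and 6.86 CPM in Pushen, 8.46, 14.4 and 8.95 CPM in PT, and 0.317, 0.495 and 0.378 CPM in sham. PT library 2 was the highest and Pushen library 3 the lowest infarct library. Of the 9 genes, 6 had their highest infarct level in PT library 2 and 2 in Pushen library 2, while 6 had their lowest in Pushen library 3. All 9 were counted in each of the 6 infarct libraries. In sham 3, 5 and 2 of the 9 had a count in libraries 1, 2 and 3. Between the highest and lowest infarct library the level differed 1.75-fold for Trac, 1.78-fold for Cd3g, 4.02-fold for Gzmb and 4.15-fold for Cd3d.

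Markers of other cells were summed in the same libraries. The 5 B cell markers came to 5.42, 4.41 and 2.01 CPM in Pushen, 2.76, 5.34 and 7.26 CPM in PT, and 0.444, 0.778 and 1.25 CPM in sham, and the 4 plasma cell markers to between 43.5 and 256 CPM in Pushen, 134 and 162 CPM in PT, and 1.00 and 3.76 CPM in sham. Of these, 3 of 5 and 3 of 4 rose in PT against sham, and 2 of 5 and 3 of 4 in Pushen against sham. Over all tested genes 16.9% rose in PT and 12.1% in Pushen, the shares to set beside this and the other marker lists. The 4 meningeal fibroblast markers all rose in both infarct groups against sham and came to between 110 and 251 CPM in Pushen, 185 and 228 CPM in PT, and 27.9 and 35.4 CPM in sham. Of 4 dendritic cell markers 2 rose in each infarct group against sham, and their sum overlapped between the groups (12.2 to 13.6 CPM in Pushen, 9.45 to 17.3 CPM in PT and 13.8 to 16.1 CPM in sham). Of 6 microglial markers 4 rose in each infarct group against sham. Of 4 border macrophage markers 3 rose in PT against sham and 2 in Pushen against sham. No marker of these lists was at 0 throughout a group, and their part in the result was not tested.

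Red blood cell markers overlapped between the groups, while the neutrophil sum was higher in every PT library than in any sham library. The 5 red blood cell markers came to 32.6, 104 and 91.2 CPM in Pushen, 38.1, 102 and 190 CPM in PT, and 179, 131 and 94.2 CPM in sham, with none of 5 passing in either comparison with sham. The neutrophil list came to between 2.11 and 7.93 CPM in Pushen, 4.94 and 8.65 CPM in PT, and 1.97 and 4.65 CPM in sham, with none of 4 tested genes passing. In the sham libraries the red blood cell sum lay within the range of the infarct libraries. The part of blood in the levels of the T and NK genes was not tested.

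Choroid plexus and striatal markers were uneven between libraries. The 5 choroid plexus markers came to 872 CPM in Pushen library 2 and 762 CPM in PT library 1, and to between 8.36 and 216 CPM in the other libraries. The 5 striatal markers came to 1290 CPM in PT library 1 and to between 164 and 319 CPM in the others. Without PT library 1 and Pushen library 2 (chosen once the marker values were known), the counts of genes that passed were again 9 of 10 in PT against sham, 0 of 10 in Pushen against PT and 9 of 10 in Pushen against sham. Of the 4 ependymal markers 3 rose in Pushen and 4 in PT, each against sham, with sums of 24.2 to 43.8 CPM in Pushen, 21.9 to 61.0 CPM in PT and 5.48 to 10.7 CPM in sham.

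**Figure D4:**
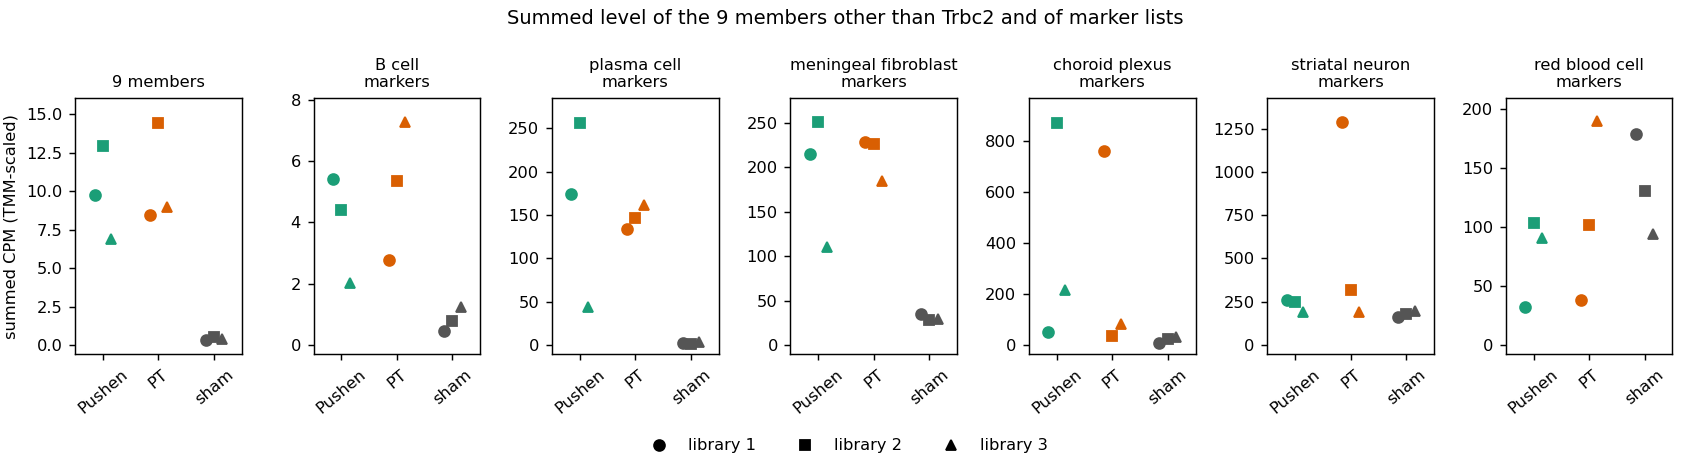
Summed CPM (vertical axis, linear, a separate scale per panel) of the 9 genes other than Trbc2 and of 6 marker lists in the Pushen, PT and sham libraries; symbols mark the library number. The 9 genes stand at 6.86 to 14.4 CPM in infarct libraries, against 0.317 to 0.495 CPM in sham, while red blood cell markers overlap between the groups.

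Other genes of the pathway were taken from 8 lists with 79 genes, of which 65 were tested. Those without a sham count reached the filter of a mean of 10 counts only through their infarct libraries, which favoured a rise. In PT against sham 42 rose and none fell, and in Pushen against sham 36 rose and none fell. Over all tested genes 16.9% rose in PT and 12.1% in Pushen, the shares to set beside each list below. When every gene with a count was tested, 42 of 78 pathway genes rose in PT and 35 of 78 in Pushen, each against sham. None of the 65 passed in Pushen against PT by edgeR or DESeq2, and 2 had an unadjusted p under 0.05. The median log2 fold change was 2.68 in PT against sham (2.01 with the 10 genes without a sham count at their bounds) and 2.26 in Pushen against sham (1.88), against 0.01 and -0.01 over all tested genes. Several of the listed genes are also expressed by cells of the brain itself, Bcl11b and Tox by neurons and Lag3 and Lcp2 by microglia or macrophages, and are not specific to lymphocytes.

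Of 12 tested genes of receptor signalling 9 rose in PT and 7 in Pushen, each against sham. Lat, the membrane adaptor phosphorylated below the receptor, rose by 2.49 ± 0.30 on the log2 scale in PT against sham (SE; edgeR adjusted p = 0.000766), and Sh2d2a, a T cell adaptor by 5.19 ± 0.82. All 4 sham counts of Sh2d2a came from library 3, without which sham is at 0. Lck, the kinase that phosphorylates the CD3 chains, had 147, 315 and 149 counts in Pushen, 252, 308 and 170 in PT, and 61, 90 and 88 in sham. It rose by 1.50 ± 0.28 in PT (edgeR adjusted p = 0.00539) and 1.34 ± 0.28 in Pushen (edgeR adjusted p = 0.0129), the last call being lost without sham library 1 (0.0552) and without PT library 1 and Pushen library 2 (0.0530). In PT the adaptor Lcp2 rose by 2.68 ± 0.37. Of 13 tested surface receptors 9 rose in PT and 6 in Pushen against sham. Cd6 and Cd7 did not pass in PT, at log2 fold changes of -0.11 and -0.09 (edgeR adjusted p = 0.738 and 0.835). In Pushen, at -0.29 and 0.09, they did not pass either (edgeR adjusted p = 0.375 and 0.858). The co-stimulatory receptor Cd28 rose by 2.76 ± 0.38 and the adhesion receptor Cd2 by 4.22 ± 0.81 in PT against sham, and Cd96, with no sham count, was also higher. Without sham library 1 the Cd2 value was 5.23, and without sham library 2 it was 3.62. The inhibitory receptor Lag3 rose by 2.59 ± 0.23 and stood at 10.5 ± 1.43 FPKM in Pushen, 14.5 ± 5.15 FPKM in PT and 2.29 ± 0.0808 FPKM in sham (SD, n = 3 each).

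Cd4, the co-receptor of helper T cells that macrophages can also carry, passed in PT but not in Pushen in the main fit, unlike the 9 genes. Cd4 was higher in every infarct library than in every sham library, as were 24.8% of tested genes in PT and 22.0% in Pushen. It had 437, 535 and 195 counts in Pushen, 2343, 711 and 304 in PT, and 93, 81 and 128 in sham. PT library 1, the library with high striatal and choroid plexus markers, held 2343 of the 3358 PT counts. It was not the highest PT library for Cd3d, Cd3e, Cd3g, Cd8a or Cd8b1. For Cd247 it was the highest, with 70 counts against 46 and 50 in PT libraries 2 and 3, and for Gzmb as well. Cd4 rose by 3.34 ± 0.68 in PT against sham (SE; edgeR adjusted p = 0.00792), and its 1.95 ± 0.66 in Pushen against sham did not pass (edgeR adjusted p = 0.0827). Without PT library 1 the value in PT was 2.20, and Cd4 passed in Pushen at an unchanged 1.95 (edgeR adjusted p = 0.0144); it also passed without PT library 3 (0.0372) and without PT library 1 and Pushen library 2 (0.0490), with DESeq2 (0.0367) and in a fit of Pushen and sham alone (0.0162).

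Among 6 tested cytotoxic effectors 3 rose in each infarct group against sham. Gzmk, at 2.26 ± 1.02 in PT and 2.25 ± 1.03 in Pushen, did not pass (SE; edgeR adjusted p = 0.136 and 0.179). Gzmm, another granzyme, had 64, 85 and 64 counts in Pushen, 105, 49 and 57 in PT, and 60, 37 and 47 in sham. It did not pass either (edgeR adjusted p = 0.398 in PT and 0.322 in Pushen). Ccl5, a chemokine stored by effector T cells, rose by 4.79 ± 0.51 in PT against sham (SE; edgeR adjusted p = 0.000522), and Ctsw, a protease of cytotoxic cells, by 3.40 ± 0.41. Prf1, the pore former perforin, had 21, 39 and 4 counts in Pushen, 32, 42 and 19 in PT, and none in sham, and was at least 2.36-fold higher in PT. In Pushen Prf1 passed too (edgeR adjusted p = 0.0117), but not without PT library 1 and Pushen library 2 (0.0585). Of 11 listed NK receptors 6 were tested, and 3 rose in each infarct group against sham. All 3 had no sham count and so passed the filter only through infarct libraries. Klrk1, the activating receptor NKG2D, had 34, 131 and 24 counts in Pushen and 48, 94 and 95 in PT, and was at least 6.20-fold higher in PT than in sham. Klrb1c, the antigen NK1.1 of some strains, was at least 2.78-fold higher in PT. Klrc1, another NK receptor, had 14, 22 and 12 counts in Pushen and 6, 16 and 41 in PT, so that its bound of at least 1.71-fold in PT rests on library 3. The Klrc1 call in Pushen (edgeR adjusted p = 0.0172) was lost without Pushen library 2 (0.0537). Klrd1, at 1.89 ± 0.86 in PT and 2.41 ± 0.86 in Pushen, did not pass (edgeR adjusted p = 0.137 and 0.0980). Its call depended on the method: Klrd1 passed with limma on log2(FPKM + 0.1) in PT (adjusted p = 0.0274) and in Pushen (0.0122), with DESeq2 it passed in Pushen (0.0230), and with edgeR it passed in Pushen without sham library 1 (0.0482).

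Transcription factors of T and NK cells rose in 6 of 10 tested cases in PT and 5 of 10 in Pushen against sham. Runx3, which drives the CD8 and cytotoxic programme, had 113, 163 and 22 counts in Pushen, 145, 112 and 96 in PT and none in sham, and was at least 9.11-fold higher in PT. Ikzf3 rose by 3.61 ± 0.45 and Tcf7 by 1.03 ± 0.15 in PT against sham. In Pushen against sham the Tcf7 rise of 0.63 ± 0.15 passed (edgeR adjusted p = 0.0232), but not when any 1 of the 3 sham libraries, or Pushen library 1 or 2, was left out (0.0593 to 0.0923), nor without PT library 1 and Pushen library 2 (0.0608). Tcf7 was lower in all Pushen than in all PT libraries, by -0.40 ± 0.15, which did not pass (edgeR adjusted p = 0.797). Genes of trafficking and residency rose in 8 of 11 cases in each infarct group against sham. The integrin chain Itgal rose by 3.09 ± 0.26 and the cytokine receptor chain Il2rb by 4.0 ± 0.55 in PT against sham, and the retention marker Cd69 was at least 3.12-fold higher. All 3 tested chemokines that attract T cells rose. Cxcl10 rose by 5.17 ± 0.34 and Cxcl16 by 4.12 ± 0.37 in PT against sham, and Cxcl9, with no sham count, was at least 10.3-fold higher in PT than in sham. Its Pushen libraries had 62, 413 and 152 counts.

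The genes most like the 10 in profile were sought among 14287 tested genes whose mean level reached 1 FPKM. Likeness was the root mean square difference, over the 9 libraries, between a gene's centred log2 CPM and the mean of the same over the 10 genes. The closest was Cd48, a surface ligand of leukocytes, at a difference of 0.230, followed by Cxcl16 (0.323), Lox (0.323), Capg (0.332), Rab7b (0.348), Tlr2 (0.354), H2-Q6 (0.357) and Il2rg (0.361), the common chain of several cytokine receptors. Cd48 had 473, 741 and 273 counts in Pushen, 463, 705 and 439 in PT, and 41, 34 and 26 in sham. For Cd48, as for 6 of the 9 genes, Pushen library 3 was the lowest infarct library, with Pushen library 2 and PT library 2 the highest. Cd48 was picked for its likeness over these same libraries, so a shared order follows from the choice and is no separate result.

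RefSeq promoters, 250 bases before to 50 after the start on GRCm38.p6, were matched for 7 of the 10 genes: Cd8a, Nkg7, Cd3g, Cd3d, Cd3e, Gzma and Gzmb. They were searched on both strands for TGTGGT (RUNX), GGAAGT (ETS), TGANTCA (AP-1), AGGTGT (T-box) and TATAAA, letters bound by factor families known in T cells and the TATA box. AGGTGT was found in 5 of the 7, in Nkg7, Gzma and the 3 CD3 genes, and in 13.7% of all 32851 promoters. TGTGGT was found in 3 of the 7, the granule genes Nkg7, Gzma and Gzmb, and in 16.8% of all promoters. GGAAGT was in 2 of 7 (23.8% of all), TGANTCA in 1 of 7 (7.81%) and TATAAA in 0 of 7 (13.6%). The matches did not overlap each other, and a match is a description of the letters only. Printed 5′ to 3′ on the gene's strand are the neighbours Cd3d and Cd3g, which point away from each other (chr9:44981536-44981835 and chr9:44980382-44980681), and the granule genes Nkg7 (chr7:43436888-43437187) and Gzmb (chr14:56262285-56262584), which rose alongside. Capitals mark the matches.
Cd3d: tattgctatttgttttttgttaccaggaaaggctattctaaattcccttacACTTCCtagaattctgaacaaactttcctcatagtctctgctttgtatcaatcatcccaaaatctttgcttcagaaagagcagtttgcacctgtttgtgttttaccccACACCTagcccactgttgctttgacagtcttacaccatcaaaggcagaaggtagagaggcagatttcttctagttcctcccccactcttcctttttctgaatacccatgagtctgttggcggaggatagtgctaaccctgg
Cd3g: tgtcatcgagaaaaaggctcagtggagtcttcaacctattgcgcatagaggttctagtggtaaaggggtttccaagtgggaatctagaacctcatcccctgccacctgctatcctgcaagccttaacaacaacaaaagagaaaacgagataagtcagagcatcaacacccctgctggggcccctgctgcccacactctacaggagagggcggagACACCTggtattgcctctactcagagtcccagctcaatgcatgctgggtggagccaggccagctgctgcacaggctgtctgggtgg
Nkg7: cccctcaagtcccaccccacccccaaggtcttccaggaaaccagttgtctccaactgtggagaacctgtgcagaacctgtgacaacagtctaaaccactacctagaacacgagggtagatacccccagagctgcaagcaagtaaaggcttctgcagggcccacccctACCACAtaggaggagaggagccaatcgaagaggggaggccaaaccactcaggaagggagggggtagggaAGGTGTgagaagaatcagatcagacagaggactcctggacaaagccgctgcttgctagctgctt
Gzmb: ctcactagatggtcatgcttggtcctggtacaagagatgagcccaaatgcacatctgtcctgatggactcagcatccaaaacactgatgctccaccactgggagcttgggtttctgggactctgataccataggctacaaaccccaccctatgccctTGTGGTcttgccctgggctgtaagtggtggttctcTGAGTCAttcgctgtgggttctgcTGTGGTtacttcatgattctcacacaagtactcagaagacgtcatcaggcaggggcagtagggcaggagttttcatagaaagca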

How the data were processed

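The table holds, per the file headers, a count and an FPKM value per gene and library. The authors deposited FPKM, reads scaled to gene length and library size, to 2 decimals. The submitters' processing notes name Bowtie, version 0.12.2, and the mm8 build; the labels' protocols name an Illumina TruSeq kit. No source used here gives the counter or its strand setting. Coordinates match GRCm38: of 55141 gene IDs also in GENCODE M21, 94.2% had identical start and end. Columns were matched to libraries by name.

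Genes with a mean of 10 or more counts over the 9 libraries were tested. TMM scaling was used, 1 model covered the 3 groups (edgeR 4.0.16 in R 4.3.3), and quasi-likelihood p-values received Benjamini-Hochberg adjustment in each comparison. An adjusted p under 0.05 passed. Each SE was taken as log2 fold change over root F. The steps were tested on simulated data. Summed CPM values use TMM-scaled library sizes. The members, gene lists and naming rule (the 10 genes, up to 4 genes of smallest p per list, 4 fixed genes, the 8 genes of most similar profile) were chosen with earlier results of these data known. Gm48719, Gm48720, Bcl11b, Tox, Gzmm, Cd6 and Cd7 were named after their values were seen. Other listed genes, among them ones that did not rise, are left unreported by name.

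Alternatives were other filters and scalings, DESeq2 1.42.0, limma 3.58.1 on log2 CPM and on log2(FPKM + 0.1) and log2(FPKM + 1), fits of the compared groups only, a block for the replicate number, and leaving out each library. Leaving out PT library 1 with Pushen library 2, and dividing counts by 4, were added after the data were seen. With 1 library per dose, dose was left out of the model. Figures were drawn with matplotlib 3.10.9.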

Additional observations from a re-analysis of the deposited data

How the results depend on the processing

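The 9 genes that rose in PT against sham passed under every alternative in which they were tested. In Pushen against sham the exceptions were Cd3d and Gzma with limma on log2(FPKM + 1) (adjusted p = 0.0617 and 0.0656), which gave 7 genes. With a filter of mean FPKM of at least 0.5 only Trac, Nkg7 and Trbc2 were tested, and 2 passed in PT against sham and 2 in Pushen against sham. That filter gave 16 and 14 pathway genes. Trbc2 did not pass under any alternative. Among the named pathway genes, limma on log2(FPKM + 1) lost Klrk1, Klrc1, Cxcl9 and Cd69 in PT against sham (adjusted p = 0.0529 to 0.125), and, among others, Cd247, Prf1, Klrk1, Klrb1c, Klrc1, Ikzf3, Runx3 and Cd69 in Pushen against sham (0.0538 to 0.241).

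Over all genes, DESeq2 called 57 in Pushen against PT, and the fit of only those groups called 1. Leaving out each library gave 3454 to 6413 genes in PT against sham, 0 to 6 in Pushen against PT and 1789 to 4055 in Pushen against sham. Without PT library 1 and Pushen library 2 there were 3649 in PT against sham and 2 in Pushen against PT.

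In Pushen against PT, log2 fold changes that did not pass changed sign when a library was left out. They ranged from -0.032 to 0.38 for Trac, -0.11 to 0.52 for Trbc2, -0.80 to 0.14 for Cd3d, -0.47 to 0.074 for Cd3e, -0.37 to 0.067 for Cd3g, -0.53 to 0.031 for Cd8a, -0.13 to 0.39 for Cd8b1, -0.38 to 0.39 for Nkg7 and -0.29 to 0.54 for Gzmb. Without PT library 1 and Pushen library 2, Trac was at -0.17 and Cd8b1 at -0.24. Trdc, which did not pass in PT against sham, ranged from -0.088 without sham library 2 to 1.05 without sham library 1.

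Replicate numbers are shared by the groups, and the labels do not say whether they pair samples. Deviations of same-numbered libraries from their group means had correlations between -0.221 and 0.0908. With 3 libraries per group these values cannot exclude a shared batch. With the replicate block 9, 0 and 9 genes of the 10 passed in PT against sham, Pushen against PT and Pushen against sham, and 4607, 0 and 2377 of all genes. Tcf7 in Pushen against sham was lost (adjusted p = 0.0537). Counts near 4 per library limit what can be said of sham.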

Other observations

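Constant chains of gamma-delta T cells, and the NK receptor Ncr1, had few counts. Trgc1, a constant region of the gamma chain, had 23, 0 and 23 counts in Pushen, 28, 26 and 0 in PT, and none in sham, and did not pass in PT against sham (edgeR adjusted p = 0.0912) or in Pushen against sham (edgeR adjusted p = 0.124). With DESeq2 Trgc1 passed in both (adjusted p = 0.0193 in PT and 0.0265 in Pushen), and with edgeR it passed in PT without PT library 3 (0.0447). Trdc, the delta constant region, had 41, 27 and 34 counts in Pushen, 24, 30 and 13 in PT, and 27, 5 and 15 in sham, and did not pass in PT against sham (edgeR adjusted p = 0.714). Ncr1, the receptor NKp46 of NK cells, lay below the filter, with 0 counts in each Pushen library, 12, 15 and 8 in the PT libraries, and 0 in each sham library.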
